A study of Bos taurus and Ovis aries and Capra hircus with 9 samples.

Results

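The 116 genes described here were abundant in every liver library of cattle, sheep and goat and had similar mean levels in the 3 species. They were chosen by their measured values, from 9734 genes shared by the 3 species, of which 8496 were expressed above a low limit and tested. A gene was kept when its level was at least 200 CPM (counts relative to library size, scaled by the trimmed mean of M-values, TMM, over shared genes) in each of the 9 libraries, and when its highest species mean was at most 2 times its lowest. The rule therefore used all 9 libraries and the contrast between species, so the similarity of the species means is the selection itself and not a result. A further 2 genes met both limits and were left out by the rule, which excludes 1 gene and a stretch of cattle chromosome 23.

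The liver makes most proteins of the blood plasma and holds the main routes of nitrogen, glucose, lipid and bile acid metabolism. A large part of its messenger RNA therefore comes from a small number of very abundant transcripts, beside the genes for protein synthesis and energy supply that all cells use. The deposited tables carry Ensembl gene identifiers without gene names, and no table used here pairs these identifiers with names, so the members are described by identifier, rank and position, with no function given. For the same reason the marker genes of hepatocytes and of other liver cells could not be looked up, and the labelled tissue was not checked against them.

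RNA was sequenced from the livers of 3 Holstein cattle aged 3 to 4 years, 3 Texel sheep aged 2 to 3 years and 3 Yunnan black goats aged 2 to 3 years, all adult and healthy. Messenger RNA was captured with oligo(dT) beads and copied with random primers. The study compared species, so species, breed and genome annotation cannot be told apart in any contrast below, nor can age in the contrasts with cattle. Each library stands for 1 animal and carries the letter A, B or C within its species.

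The libraries held 16507706 to 61105490 counts on genes. Genes of the mitochondrial sequence, of which 0 were among the shared genes, took between 9.61% and 10.85% of cattle counts, whereas sheep lay between 1.99% and 2.99% and goat between 1.09% and 3.70%. Goat C was the shallowest library and stood apart, with a TMM factor of 1.49 where the other 8 libraries lay between 0.848 and 1.07. The ratios, counts and correlations that it moves most are also given without it. Single ratios without it come from a new scaling of the 8 remaining libraries, and counts over the members keep the scaling of all 9.

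The summed share of the members in each liver is a description, since the rule kept only genes with similar species means. Of all counts on genes, they held 10.7% ± 1.32 in cattle, 11.6% ± 0.272 in sheep and 11.2% ± 2.43 in goat (mean ± SD, n = 3 animals each). By library the share was 11.8%, 10.9% and 9.23% in cattle A, B and C, 11.4%, 11.4% and 11.9% in sheep, and 12.8%, 12.4% and 8.39% in goat. The ranges overlapped, and goat C had the lowest share of the 9. The lowest count of any member in any library was 2913, for which counting error alone is 1.85%, small beside the spread between animals. Whether the shallow goat C differed in other ways tied to its depth was not tested. Intervals of counting error would understate the error, since reads were not marked by molecule.

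Levels were very uneven among the members. The median member had a level of 723 CPM, against 27.1 CPM for all genes tested, a gap that the level limit sets. Only 2 members exceeded 10000 CPM, 37 lay between 1000 and 10000 CPM, and 77 were below 1000 CPM. The 3 highest members made up 26.8% of the summed level of all members, and the 10 highest made up 43.1%.

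**Figure D1:**
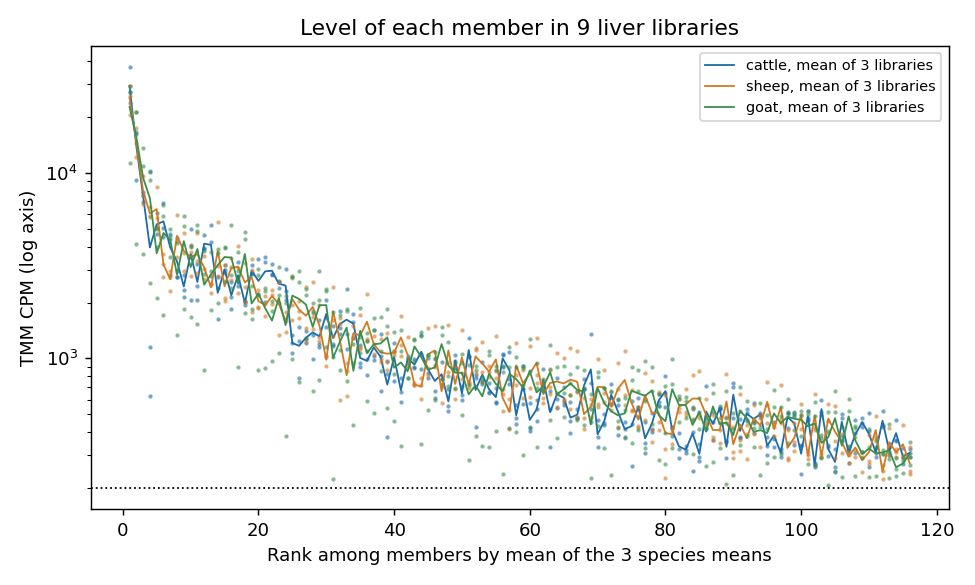
TMM CPM on a log axis of each of the 116 members, ranked by the mean of the 3 species means. Points are the 9 libraries, lines join the species means of 3 libraries, and the dotted line marks the limit of 200 CPM; the level falls steeply over the first members and the 3 species lines run close together, as the selection requires.

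The most abundant member was ENSBTAG00000017280, a gene of 41 exons on the plus strand of cattle chromosome 7 from 17773675 to 17810616 (ARS-UCD1.2). Its level was 37113, 27166 and 23800 CPM in cattle, 20544, 25979 and 29456 CPM in sheep, and 29271, 27300 and 11277 CPM in goat A, B and C. The libraries of the 3 species overlapped, and goat C was far below the other two goats. The species means were 29360 ± 6922 CPM in cattle, 25326 ± 4491 CPM in sheep and 22616 ± 9869 CPM in goat (SD, n = 3), a ratio of 1.30 between the highest and the lowest, and of 1.15 without goat C.

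The second member, with 18 exons on the minus strand of cattle chromosome 1 from 135579069 to 135618070, had a smaller ratio of 1.12, which was 1.5 without goat C. It was at 16067, 16485 and 9128 CPM in cattle, 14521, 17404 and 12212 CPM in sheep, and 21233, 21153 and 4113 CPM in goat. The near-equal species means thus came with a wide spread inside goat, where A and B were the highest of all 9 libraries and C the lowest. The third member, on chromosome 6 from 86953984 to 87007062, was at 6954, 7873 and 7571 CPM in cattle, 6795, 9591 and 7517 CPM in sheep, and 10845, 13663 and 3640 CPM in goat. Here too goat held both the highest libraries and the lowest one, and the ratio of 1.26 became 1.62 without goat C.

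The fourth member, ENSBTAG00000026917, a gene of 5 exons on the minus strand of cattle chromosome 21 from 59405098 to 59413707, was the least even of all. Cattle A was at 10092 CPM while cattle B and C were at 626 and 1153 CPM. Sheep were at 5747, 6538 and 5834 CPM, and goats at 9126, 10216 and 2542 CPM. Its pooled within-species SD of 1.38 on the log2 scale was the largest among members, and its species-mean ratio was 1.84. Without cattle A the ratio was 8.20, and without goat C it was 2.41, so the gene met the 2-fold limit only with these animals included.

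Levels were also divided by annotated exon length, which is needed to compare genes with each other. They were then rescaled to the same total in each library over all genes tested. These rescaled values are given as CPM per kb and are not plain quotients of CPM and length. With them the order changed. The second member became the first, at 12758 CPM per kb, and the first became the second, at 9908 CPM per kb. The third place went to a short gene of 6 exons on chromosome 12 from 15472287 to 15475922, at 7527 CPM per kb, which was 18th by CPM. This place rested on goat: it was at 5167 in cattle, 4482 in sheep and 12931 in goat. Its annotated lengths were 928, 987 and 579 bases. The fourth member by CPM followed closely at 7515 CPM per kb and lay above it in cattle and sheep, at 6131 and 6917. Of the 10 highest members by CPM, 5 were also among the 10 highest per kb. The level per kb over all members ran from 101 to 12758, with a median of 926 against 21.8 for all genes tested.

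The species means of the members differed by a median ratio of 1.55, from 1.04 to 1.99, and all of these values lie inside the limit that chose them. A ratio of at most 1.5 was seen in 47 members. Cattle had the highest mean for 39 members, sheep for 44 and goat for 33. Cattle had the lowest mean for 52 members, sheep for 33 and goat for 31. Over all genes tested, cattle was highest for 37.6%, sheep for 28.9% and goat for 33.5%, and lowest for 40.6%, 28.2% and 31.2%. The most frequent order among members was sheep highest and cattle lowest, in 30 (25.9%), against 19.5% of all genes tested. The least frequent was goat highest and sheep lowest, in 11 (9.48%), against 12.4%. Without goat C these 2 orders were seen in 23 members (19.8%) and 24 members (20.7%), against 19.8% and 11.7% of all genes tested. The counts by species moved too: without goat C, goat was highest for 60 members (51.7%) and lowest for 16 (13.8%). Cattle was then highest for 26 (22.4%) and lowest for 59 (50.9%), and sheep highest for 30 (25.9%) and lowest for 41 (35.3%). Over all genes tested without goat C, goat was highest for 31.1%, cattle for 38.3% and sheep for 30.5%. They were lowest for 32.3%, 39.3% and 28.5%. Without goat C 102 of the 116 (87.9%) kept a ratio of at most 2, against 36.2% of all genes tested, a gap that follows from the rule.

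The closest species means belonged to a gene of 13 exons on chromosome 21 from 55370251 to 55392458, ranked 37th, with a ratio of 1.04, or 1.32 without goat C. Its libraries were at 977, 1033 and 1430 CPM in cattle, 1197, 1322 and 1055 CPM in sheep, and 1416, 1650 and 506 CPM in goat. The 3 sets overlapped fully and goat enclosed the others. In cattle, 9.10% of its exon length was shared with another gene, and since strand use in counting was not stated, reads of the overlapping parts cannot be assigned with certainty.

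At the other end, the member nearest to the limit lay on chromosome 16 from 4932453 to 4979207, with a ratio of 1.99, or 2.19 without goat C. It was at 2374, 1353 and 1123 CPM in cattle, 631, 947 and 858 CPM in sheep, and 1791, 1849 and 753 CPM in goat. All cattle libraries were above all sheep libraries, whereas goat overlapped both. The nearest gene outside the limit had a ratio of 2.01, with means of 551 CPM in cattle, 854 CPM in sheep and 425 CPM in goat. At the level limit, the lowest value of a member was 209 CPM and the highest lowest-library value of a gene left outside was 199 CPM. The limits thus pass through a continuous range of values and mark no gap. In all, 210 shared genes reached 200 CPM in every library, and 90 of them were left out because their species means differed by more than 2-fold.

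The rule limited the difference between species means and left the spread among animals of a species free. For 106 of the 116 members (91.4%), the highest library exceeded the lowest within some species by a larger factor than the species means differed, which the limit on the means favours. The same held for 43.9% of all genes tested and for 21.1% of the 90 equally abundant genes beyond the limit. Without goat C, which also leaves only a pair of goats, it held for 65 members (56.0%). It then held for 33.0% of all genes tested and for 6.67% of the 90. The median of that largest within-species factor was 2.23, the same as over all genes tested. By species, the median factor between the highest and the lowest animal was 1.31 in cattle, 1.45 in sheep and 2.16 in goat for members, against 1.34, 1.59 and 1.87 over all genes tested. A total of 14 members (12.1%) stayed within 2-fold across all 9 libraries, against 8.16% of all genes tested and 0 of the 90. Across the 8 without goat C, 38 members (32.8%) did so, against 12.6% of all genes tested and 0 of the 90. The limit on the means favours this gap. The word "steady" thus describes the species means and not the single animals.

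**Figure D2:**
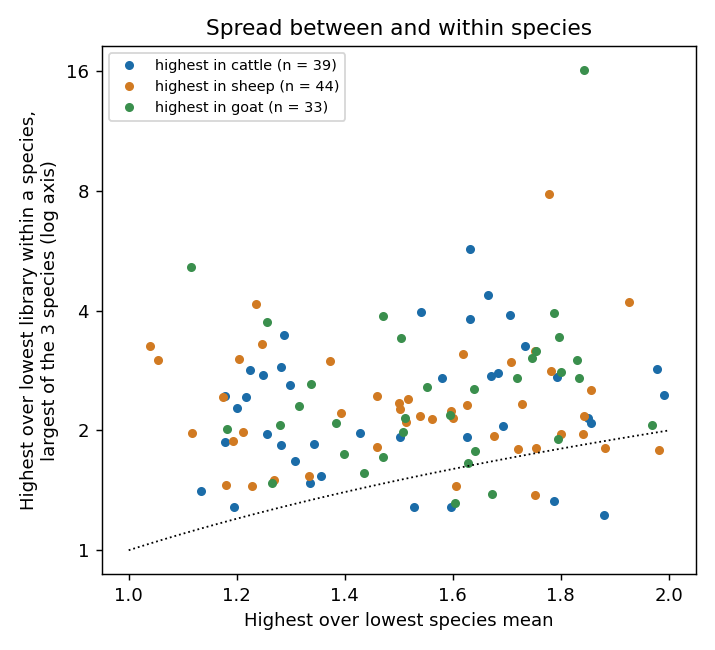
Highest over lowest species mean of each member (x axis, limited to 2 by the rule) against the highest over lowest library within a species, taking the largest of the 3 species (y axis, log scale), coloured by the species with the highest mean. The dotted line marks equality. By the rule no member lies right of 2, so that 106 of 116 above the line is in part set by the selection; over all genes tested the share above it is 43.9%.

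Goat C lay low for most abundant genes, members or not. It was below both goat A and goat B for 99 members (85.3%) and above both for 9, and it was below both for 75 of the 90 equally abundant genes beyond the 2-fold limit (83.3%), against 37.0% of all genes tested. The median member was at 0.503 times the mean of goat A and B, the median of the 90 other abundant genes at 0.560 times, and the median over all genes tested at 1.0 times. Goat C was the lowest of the 9 libraries for 64 members. Between goat A and B alone the median factor was 1.17. Goat C was the shallowest library and had the highest TMM factor and the highest mitochondrial share of the goats, and their part in its low values was not tested. Whether fewer cells of a type or less RNA per cell lies behind a lower level cannot be told apart in bulk tissue.

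Sheep B stood on the other side. It was above sheep A and C for 85 members (73.3%), for 61 of the 90 other abundant genes (67.8%) and for 39.3% of all genes tested. It was the highest of all 9 libraries for 35 members. The median member was at 1.31 times the mean of sheep A and C, the median other abundant gene at 1.28 times, against 0.975 over all genes tested.

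**Figure D3:**
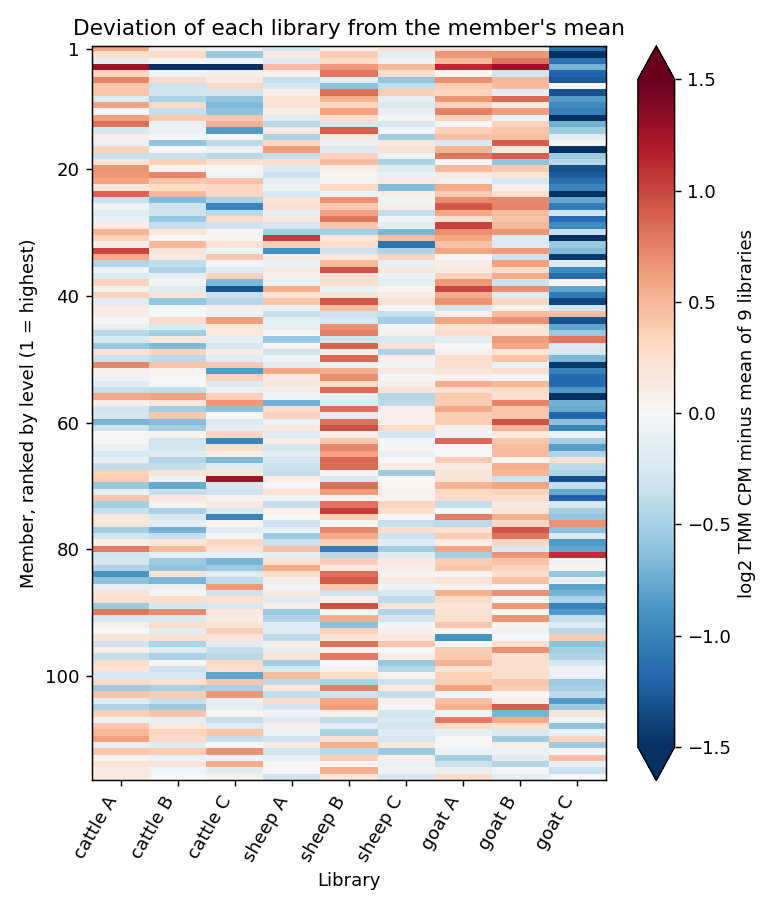
Deviation of each library from the member's own mean of 9 libraries, in log2 TMM CPM, for the 116 members ranked by level (rows) and the 9 libraries (columns). Goat C is the column with most values below the mean, being the lowest library for 64 members, and sheep B is the highest for 35.

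The members with the smallest spread among animals were not among the most abundant: the 5 smallest SDs belonged to members with levels of 322 to 937 CPM. The smallest pooled within-species SD, 0.120 on the log2 scale, belonged to a gene of 16 exons on chromosome 16 from 32404381 to 32420440, ranked 112th. It was at 438, 426 and 522 CPM in cattle, 266, 248 and 223 CPM in sheep, and 307, 305 and 323 CPM in goat. The 3 species did not overlap, and goat C was slightly above the other goats. The next smallest, 0.124, belonged to a gene of 27 exons on chromosome 19 from 23586772 to 23608018, at 480, 428 and 452 CPM in cattle, 313, 244 and 295 CPM in sheep, and 315, 291 and 313 CPM in goat. Here cattle lay above all sheep and goats, which overlapped each other. The second largest SD belonged to a gene on chromosome 28 from 41609015 to 41649016, at 1499, 1172 and 1191 CPM in cattle, 2435, 1325 and 1610 CPM in sheep, and 1773, 1021 and 225 CPM in goat. Its SD was 0.933, and goat C lay far below the other 8 libraries.

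Differences between species within the 2-fold limit were also fitted across all 8496 genes in edgeR by quasi-likelihood, with p-values adjusted by Benjamini-Hochberg. Because the rule limited these very contrasts, the counts are a description and nothing is read from them. Between cattle and sheep, 7 members passed an adjusted p of 0.05, where 48.6% of all genes tested did. Between cattle and goat 2 members passed, where 52.8% of all genes did, and between sheep and goat 0 passed, where 25% of all genes did. For sheep against goat, 4 members had an unadjusted p under 0.05, against 3169 of the 8496 genes tested. DESeq2 called 5 members, against 30.7% of the genes it tested. The median absolute log2 difference of members was 0.459 for cattle against sheep, 0.356 for cattle against goat and 0.267 for sheep against goat, with a median standard error of 0.372 in each. The 3 comparisons share libraries and are not independent of each other.

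Without goat C the counts rose to 31 members for cattle against sheep, 27 for cattle against goat and 7 for sheep against goat, where 54.4%, 51.0% and 25.8% of all genes tested passed. The cattle and sheep libraries are the same in both fits. The scaling and the spread of each gene were estimated over all libraries of a fit, so both were estimated anew without goat C. Their part in the change of the contrast between cattle and sheep was not tested. Leaving out any cattle or sheep library gave 1 to 4 members for cattle against sheep, where 38% to 42.7% of all genes tested passed. For cattle against goat it gave 0 or 1, where 42% to 55.4% passed. Without goat A the counts were 8 for cattle against sheep, 5 for cattle against goat and 2 for sheep against goat. The shares of all genes tested were then 52%, 54.9% and 28.4%. Without goat B the counts were 5, 0 and 0, and the shares were 47.4%, 43% and 16.8%. The counts of members and the shares of all genes both varied with the animals included, and remain a description.

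The member with the second largest ratio, 1.98, lay on chromosome 23 from 8488475 to 8495421, at 294, 280 and 346 CPM in cattle, 477, 852 and 493 CPM in sheep, and 517, 612 and 416 CPM in goat. Its cattle libraries were below all others, and its ratio was 2.02 without goat C.

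Libraries of 2 species did not overlap for 54 members between cattle and sheep, where 66.9% of all genes tested did not overlap, for 16 members between cattle and goat, against 62.5%, and for 10 members between sheep and goat, against 36.9%. Without goat C the latter counts were 62 members, against 73.2% of all genes tested, and 47 members, against 49.9%. For 56 members the libraries overlapped in all 3 pairs of species. Cattle lay above all sheep and goats for 7 members and below all of them for 5. The counts 56, 7 and 5 include goat C. Their shares over all genes tested were not computed, so nothing is read from them. Across members, levels in 2 libraries of the same species had a Spearman correlation between 0.892 and 0.956 for cattle, between 0.912 and 0.957 for sheep, and between 0.717 and 0.935 for goat. Across species it ran from 0.668 to 0.938 over the 27 pairs of libraries, with n = 116 genes that share library, scaling and the level limit. Without goat C the lowest value was 0.935 within goat and 0.752 across species, over 21 pairs.

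The ratio of species means is affected by how long each gene is annotated to be. The exon length of a member differed between the 3 annotations by a median factor of 1.53, and by more than 2-fold for 29 members. On CPM per kb, rescaled as above, the median ratio of species means rose from 1.55 to 1.78. By this measure 74 members were at or under 2 and 42 above. The largest value, singled out after the values were seen, belonged to a member of 5 exons on cattle chromosome 4 from 76709520 to 76713230, annotated at 519 bases in cattle, 818 in sheep and 5499 in goat. Its means were 614, 733 and 683 CPM in cattle, sheep and goat, a ratio of 1.19. On the rescaled CPM per kb they were 2845, 1530 and 266, a ratio of 10.7. The species means in TMM CPM were close and the annotated lengths were not.

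**Figure D4:**
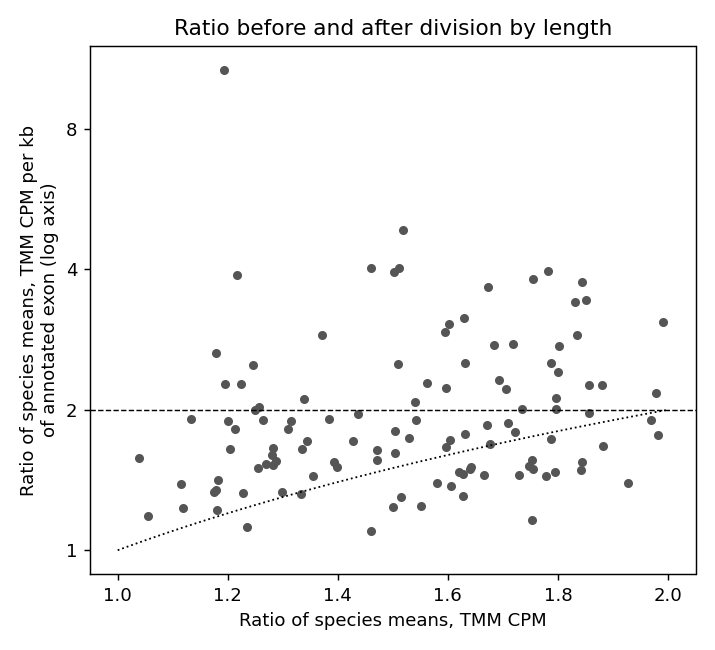
Ratio of the highest to the lowest species mean of each member in TMM CPM (x axis) and in TMM CPM per kb of annotated exon (y axis, log scale). The values per kb were rescaled to the same total in each library over all genes tested. The dotted line marks equality and the dashed line a ratio of 2; 42 of 116 members lie above the dashed line, with a largest value of 10.7.

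The level and ratio limits did not use gene structure, although the search for shared genes used internal exons and gene order. Members had a median of 11 exons in cattle, 11.5 in sheep and 11 in goat, against 12 in each species over all genes tested. Their median exon length was 2330 bases in cattle, 1750 in sheep and 2030 in goat, against 2860, 2030 and 2430 over all genes tested. This was not particular to the members. The 90 equally abundant genes beyond the 2-fold limit had medians of 2560, 1590 and 2260 bases, and of 10, 11 and 10 exons. In cattle 15 members (12.9%) shared some exon sequence with another annotated gene, against 11.5% of all genes tested, and 0 members were overlapped over more than 50% of their length in any species. How multiply mapping reads were counted was not stated.

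Members were found on 29 of the 30 cattle chromosomes that held tested genes, and were absent from chromosome 26, where 169 genes were tested. Chromosome 5 held the most, 9 of 464 genes tested. There were 15 pairs of neighbouring members less than 1 Mb apart in cattle, and 14 of these pairs were also within 1 Mb in sheep and goat, where the search for shared genes had itself required neighbouring matched genes. The closest lay on chromosome 18, from 65641089 to 65646101 and from 65660240 to 65665846, with 14.1 kb between them in cattle, 15.4 kb in sheep and 23.4 kb in goat. The next, on chromosome 5 from 103358822 to 103387417 and from 103407687 to 103419088, were 20.3 kb apart in cattle, 20.1 kb in sheep and 18.1 kb in goat, and ranked 8th and 20th by level. The fourth member, which differed so widely among cattle, lay 78.6 kb from another member in cattle, 33.8 kb in sheep and 15.6 kb in goat.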

How the data were processed

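Trimmed reads were aligned by the authors with STAR 2.7.6 after Trimmomatic 0.39 and counted per gene with featureCounts, per the labels, on ARS-UCD1.2 for cattle and on the sheep and goat assemblies with Ensembl annotation. The deposited values are raw counts per gene, 1 table per animal; strand and multi-mapping options are not given in the sources used here. Shared genes were found from the exon lengths in the tables (reciprocal best in each species pair, at least 2 internal exons matched, 50% of the shorter list, 2 neighbouring pairs within 10 genes), giving 11031, 10754 and 10739 pairs and 9734 genes. Counts were scaled with TMM, filtered at CPM above 1 in at least 2 libraries and fitted with edgeR 4.0.16 (R 4.3.3), with DESeq2 1.42.0 as an alternative. The scripts were tested on simulated data. The members were chosen with earlier results of these data known. Named members are the 10 highest, the 5 highest per kb and the 5 at either end of the ratio and of the within-species SD, reported in part, with 1 member of the largest per-kb ratio and the closest neighbouring pairs added after their values were seen. The files do not pair identifiers with gene names: the table of RefSeq cattle genes used here is of ARS-UCD2.0, a different build, and shares no identifier with them, so the planned lists of genes by role and of cell type markers were not applied and 2 identifiers are printed. Sequences were not used here. An edgeR p-value sets a difference between species against the spread among animals of the same species. That spread was estimated for each gene over all libraries of the fit together, with 3 animals of each species in the main fit. Replicate libraries differed by more than sampling noise.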

Additional observations from a re-analysis of the deposited data

How the results depend on the processing

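The number of members was 289 with a level limit of 100 CPM, 54 with 400 CPM and 47 with a species-mean limit of 1.5. It stayed between 84 and 120 under DESeq2 size factors, CPM without TMM, division by length, 4 matched internal exons, no gene-order condition and no filter, and between 113 and 133 when 1 library was left out. The same number can hold different genes: CPM without TMM kept 67.2% of the 116, division by length 54.3%, and leaving out goat C 88.8%. The counts of members called for cattle against sheep, cattle against goat and sheep against goat were 7, 2 and 0 in the main fit. With DESeq2 they were 19, 14 and 5, where 53.2%, 56.7% and 30.7% of all genes passed. Without a filter they were 4, 1 and 0, where 44.8%, 48.8% and 23% passed. With exon length as an offset they were 22, 31 and 18, where 48.2%, 50.9% and 25.4% passed. The last 3 counts include differences in annotated length. Leaving out 1 library gave 1 to 31, 0 to 27 and 0 to 7 members. The shares of all genes passing then ran from 38% to 54.4%, 42% to 55.4% and 16.8% to 28.4%. The member counts were highest without goat C, and the cause was not tested. Descriptions added after seeing the data, without goat C, moved from 106 to 65 members (within-species range above the ratio of means) and from 14 to 38 (within 2-fold over all libraries). Over all genes tested these shares moved from 43.9% to 33.0% and from 8.16% to 12.6%. With the replicate letter as a block the counts were 5, 1 and 0, where 47.8%, 51.5% and 23.7% of all genes passed. The letters are names of different animals. The correlation of same-letter deviations ran from -0.195 to 0.299, and same letters were not taken as pairs. The members' share of counts was 11.2% of all gene counts on average and 17.8% of counts on shared genes only, a smaller denominator. Of 336 ratios of single members recomputed under an alternative, 323 moved by less than the within-species SD and 13 by more, 9 of these under division by length. The SD is each gene's own, so a member with a wide spread could move far and still fall within it. Without goat C the second member moved from 1.12 to 1.5 and the fourth from 1.84 to 2.41, both by less than their SD. The number 323 therefore does not say how many ratios stayed within 2-fold. With 3 animals per species, the median standard error of a member's log2 difference was 0.372.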
